A study of Mus musculus with 104 samples.

Results

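The cytosolic ribosomal protein genes were followed in mouse primary hepatocytes that had taken up 1 of 6 small interfering RNAs (siRNAs). Members were chosen by name: the symbol had to be Rpsa, Rplp0, Rplp1 or Rplp2, or Rpl or Rps with a number and at most 1 of the endings a, x, l or l1, and the mean over all libraries had to reach 1 CPM, which is a count scaled to the library total. Of 55416 genes in the files, 86 symbols matched and 79 reached the level, among 11974 genes that did. The 7 symbols left out were Rpl24 (0.529 CPM), Rpl32l (0.163 CPM), Rpl6l (0.0435 CPM), Rpl3l, Rpl10l, Rpl39l and Rps12l1, and the members nearest above the limit were Rps10 (2.64 CPM), Rps4l (15.1 CPM) and Rpl29 (29.5 CPM). No sample group entered the choice.

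The cytosolic ribosome reads mRNA in a small subunit, whose proteins carry the names Rps and Rpsa, and joins amino acids in a large subunit, whose proteins carry the names Rpl and Rplp. The acidic stalk proteins Rplp0, Rplp1 and Rplp2 recruit translation factors to the large subunit. Most of these genes have short mRNAs that begin with a run of pyrimidines, the terminal oligopyrimidine (TOP) tract, through which nutrient and growth signals control their translation together. Several members end in l or l1 and are paralogs of a core gene, such as Rpl22l1, the paralog of Rpl22, and Rps27l, a p53 target gene.

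The cells were transfected for 24 h in multiwell plates with Lipofectamine RNAiMax, and the mock group is labelled with no siRNA or dose. D1, D2 and D3 share a guide strand against Hao1, which encodes the liver enzyme hydroxyacid oxidase, and D4, D5 and D6 share a guide against Ttr, which encodes the thyroxine carrier transthyretin. D1 and D4 are the parent siRNAs. D2 carries the acyclic glycol nucleic acid (GNA) nucleotide GNA-C at position 5 of the guide and D3 the isonucleotide GNA-isoC there, while D5 and D6 carry GNA-G and GNA-isoG at position 6; both positions lie in the seed, the stretch of the guide that pairs with off-target mRNAs. Each siRNA was given at 0.1, 1, 10 and 50 nM to 4 libraries, and 8 libraries were mock. The sources used here do not say whether the libraries of a group came from separate cultures or animals, so p-values measure the spread between these libraries, which may be technical.

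Whole-series values were as follows. Library totals, with the 2 sequencing runs summed, ran from 3409963 to 5308584 counts in mock and up to 6160626 in the siRNA groups. Hao1 was at 5.08 ± 0.16 log2 CPM (SD, n = 8) in mock and lay below every mock library in each of the 48 libraries with D1, D2 or D3, and Ttr was at 9.36 ± 0.13 log2 CPM in mock and lay below every mock library in each of the 48 libraries with D4, D5 or D6. All 4 Hao1 values also lay below mock with D4 and with D6 at 10 and 50 nM. Their group means were 4.3 to 4.5 log2 CPM, against 0.21 to 3.83 with D1, D2 and D3. The 13 hepatocyte markers in the files summed to 19950 to 23920 CPM in mock. Of 10 Kupffer cell and macrophage markers, 7 were at 0 in mock, Clec4f and Marco among them, and the list summed to 16.6 to 23.2 CPM. Of 6 cholangiocyte markers, 0 were at 0 in mock, and they summed to 149.9 to 175.5 CPM.

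Promoter windows show the sequence feature that the naming rule did not use. RefSeq windows on GRCm38.p6 were given for 58 of the 79 members, each 300 bases long, with 250 before the annotated start. From 30 bases before the start to 50 after it, on the sense strand, a run of at least 8 pyrimidines that begins with C was found in 45 of the 58 members (77.6%), against 21.4% of 8935 expressed genes and 23.0% of 27025 genes with a window. A run of at least 10 was found in 31 members (53.4%), against 10.4% of expressed genes. The windows of 6 members are printed for that run, from 30 bases before to 30 bases after the start, with the longest run in capitals. Rps25 and Rpl5 are the members with the largest falls, and Rpl22l1 and Rps27l are paralogs of core genes. Rpl27a holds the longest run shown, and Rps12 had the highest level per kilobase.
Rps25, chr9:44407684-44407743, plus strand: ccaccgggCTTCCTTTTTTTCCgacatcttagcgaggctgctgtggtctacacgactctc
Rpl5, chr5:107900498-107900557, plus strand: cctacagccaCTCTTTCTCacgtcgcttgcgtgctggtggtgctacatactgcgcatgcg
Rpl22l1, chr3:28805478-28805537, plus strand: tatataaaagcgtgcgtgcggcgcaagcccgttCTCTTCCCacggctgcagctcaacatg
Rps27l, chr9:66946056-66946115, plus strand: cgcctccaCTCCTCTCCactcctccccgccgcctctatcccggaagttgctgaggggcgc
Rpl27a, chr7:109519165-109519224, plus strand: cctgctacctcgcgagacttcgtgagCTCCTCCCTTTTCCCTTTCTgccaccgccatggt
Rps12, chr10:23787180-23787239, minus strand: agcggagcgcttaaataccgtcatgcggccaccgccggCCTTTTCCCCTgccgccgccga
The run was 14 bases long in Rps25, 9 in Rpl5 and Rps27l, 8 in Rpl22l1, 20 in Rpl27a and 11 in Rps12. A run in such a window is a match of letters and not a mapped TOP tract, since start sites were not measured here.

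Other promoter motifs were found in fewer members. The motif CCGGAAG, an ETS family core, was found on either strand of the 300 bases in 23 of 58 members (39.7%), against 19.7% of expressed genes and 9.12% of all windows. AAGATGG, a YY1 core, was found in 9 members (15.5%), against 7.7% of expressed genes. CCAAT was found in 18 members (31.0%), against 39.2% of expressed genes. CCGGAAG ends in the letters that AAGATGG begins with, so matches of both can overlap, and the shares are descriptions with no test.

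In mock hepatocytes the members together took 2.17 ± 0.14% of counts (SD, n = 8 mock libraries). Per kilobase of spliced length, among the highest mock levels were those of Rps12 (764.9 ± 52.3 CPM per kb), Rpl23a (740.1 ± 43.8 CPM per kb), Rplp1 (705.9 ± 46.5 CPM per kb) and Rplp0 (617.6 ± 40.3 CPM per kb). Each of these encodes a core protein of its subunit. Rps12, Rpl23a and Rplp1 lay within 1 SD of their neighbour among the 3, and Rplp0 lay more than 1 SD below Rplp1. The lowest were Rpl34 (37.0 ± 3.04 CPM per kb), Rpl37 (26.8 ± 2.11 CPM per kb), Rps4l (11 ± 1.69 CPM per kb), Rpl29 (8.93 ± 1.02 CPM per kb) and Rps10 (3.57 ± 1.45 CPM per kb). Lengths were those of the annotated canonical transcript: 6111 bases for Rpl37, 3330 for Rpl29 and 1998 for Rpl34, against a median of 1103. A low rank can thus rest on the annotated length. Without division by length, Rpl37 was at 7.35 log2 CPM in mock, against a mean over members of 7.72. Rps10 rested on 3 to 27 counts per library, and the files also hold 319 symbols of Rpl and Rps pseudogenes; only uniquely aligned reads were counted, so reads shared with such near-identical copies are missing from the members and low levels are uncertain. The X-linked core gene Rps4x was at 467.9 CPM per kb, far above its paralog Rps4l.

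Mock libraries differed from each other in the members as a body. The mean log2 CPM over the 79 members, called the member level here, was 7.57, 7.60, 7.76, 7.79, 7.74, 7.72, 7.78 and 7.82 in mock replicates 1 to 8. Replicates 1 and 2 were the lowest: 1 and 2 of 79 members lay above their mock mean there, against 41 to 74 in the other 6 mock libraries. For 62 of 79 members, these were the 2 lowest of the 8 mock libraries. They also had the smallest mock totals, 3452580 and 3409963 counts, against 4700681 to 5308584 in the others; the part of depth in the member level was not tested.

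**Figure D1:**
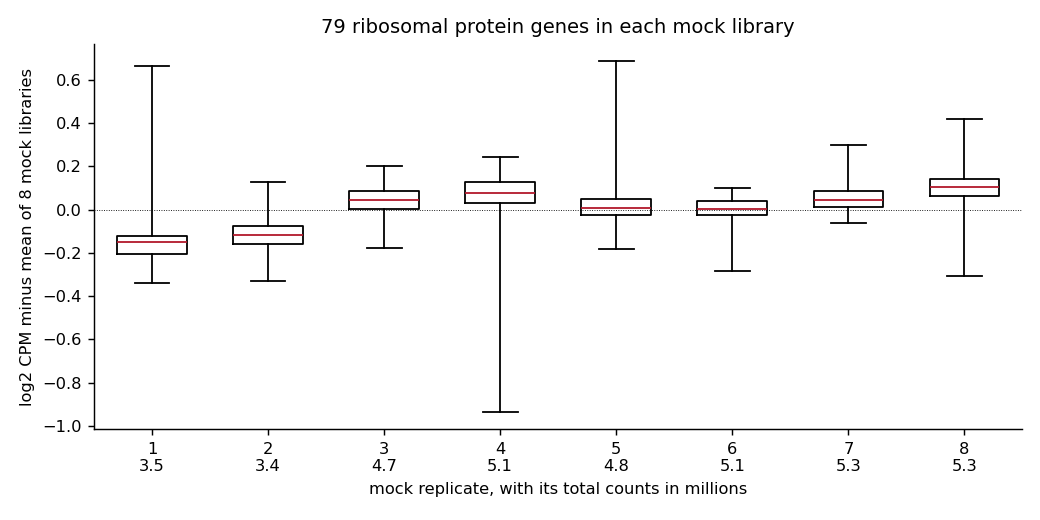
Ribosomal protein genes in the 8 mock libraries, as the log2 CPM of each member minus its mean over the mock libraries (y axis), by mock replicate with its total counts (x axis); the box spans the quartiles, the red line is the median and the whiskers are the lowest and highest member. Replicates 1 and 2 sit below the rest, with median deviations of -0.15 and -0.12, and replicate 8 is highest, at 0.10.

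In 6 of the 8 mock libraries the members' deviations ran largely in 1 direction, and in replicates 5 and 6 they were split, with 42 and 41 of 79 members above their mock mean. The SD over mock libraries of the member level was 0.091, against 0.0080 for the mean over 3386 other genes with at least 6 log2 CPM, a mean that the scaling holds nearly fixed. Single genes varied about alike: the median SD was 0.107 for the 75 members at that level and 0.098 for the other genes. The most variable members were Rps10 (SD 0.540), Rps4l (SD 0.215) and Rpl30 (SD 0.182), and the least variable were Rps26 (SD 0.0540), Rpl7a (SD 0.0600) and Rpl10 (SD 0.0644). Since all 24 comparisons with mock share these 8 libraries, their calls are not independent, and counts without mock replicates 1 and 2 are given beside the larger counts below as an alternative added after the data were seen. Those libraries were the lowest in member level, so leaving them out raises the mock mean. That alone favours more members called lower and fewer called higher, so these counts are no independent check.

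The member level in the siRNA groups stayed close to mock at the 2 lower doses. The group means ran from 7.65 to 7.70 at 0.1 and 1 nM, against 7.72 in mock, and each group overlapped the mock libraries. At 50 nM they were 7.56 with D1, 7.59 with D2, 7.58 with D3, 7.74 with D4, 7.61 with D5 and 7.65 with D6. Of the 4 libraries per group at 50 nM, 2 lay below all mock libraries with D1, D2, D3 and D6, 1 with D5 and 0 with D4. The group that stood above the rest was D4 at 10 nM, at 7.80, 7.96, 7.85 and 7.96 in its 4 libraries, of which 3 lay above every mock library. In 15 of the 24 siRNA groups the library numbered replicate 4 had the highest member level, and in 0 the lowest. In bulk samples, less of an mRNA per cell and fewer cells that contain it cannot be told apart.

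**Figure D2:**
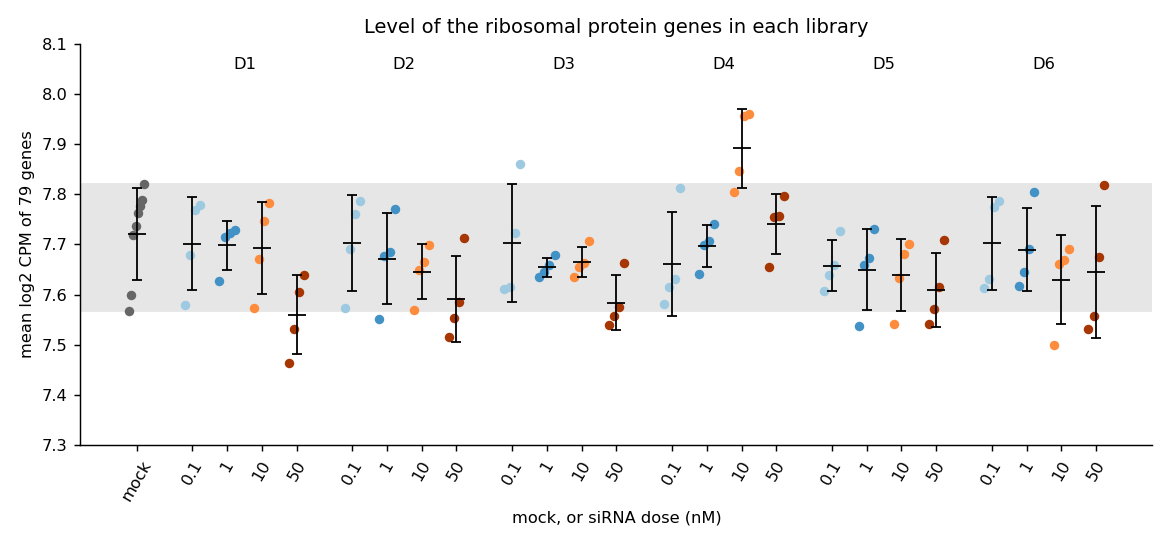
Mean log2 CPM over the 79 ribosomal protein genes (y axis) in each library, by siRNA and dose in nM (x axis), with each point a library, the black bars the group mean and SD, and the grey band the mock range. The y axis does not start at 0. The 4 libraries with D4 at 10 nM are high, at 7.80 to 7.96, and the groups at 50 nM other than D4 have means of 7.56 to 7.65, below the mock mean of 7.72.

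With D4 at 10 nM the ribosomal protein genes were higher relative to other genes. Against mock, 44 of 79 members were called higher and 0 lower in edgeR's quasi-likelihood test with Benjamini-Hochberg adjustment over all genes (adjusted p under 0.05), where 12.2% of all genes tested were called higher and 14.4% lower. The median log2 fold change of the members was 0.18, against a range of medians from -0.14 to 0.02 over the other 23 siRNA groups. The difference from mock was positive in 78 of 79 members, and for 76 of 79 this was the highest mean of the 25 groups. The share of counts on the members was 2.45 ± 0.16% (SD, n = 4), against 2.17 ± 0.14% in mock. The count was 21 without D4 replicate 4, 23 without D4 replicate 2, 29 without mock replicate 1, and 17 without mock replicates 1 and 2.

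The direction of this change depended on the scale. The tests rest on scaling that holds the median gene near 0. When libraries were scaled to the added spike-in RNAs instead, the median of all genes against mock shifted by -0.56 to 0.13 over the 24 groups and was negative in 20 of them. With D4 at 10 nM the median of the members was then -0.39 and that of all genes -0.56, and 46 members were called lower and 0 higher. A change of scale shifts all genes nearly alike, so the members' median lay above that of all genes on both scales by arithmetic. The spike-in scale is thus no second check of that gap. Each rise or fall below is relative to the other genes and not per spiked-in molecule.

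Both subunits took part in the rise with D4 at 10 nM. Of 44 large subunit members outside the stalk, 23 were called higher (median 0.19), of 32 small subunit members, 18 (median 0.18), and of the 3 stalk proteins, all 3. Rpl36a, a large subunit protein encoded on the X chromosome, was at 7.26, 7.26, 7.33 and 7.48 log2 CPM with D4, against 6.86 to 7.11 in mock, without overlap (log2 fold change 0.30 ± 0.06 SE, edgeR adjusted p = 0.000421). Rps15, a small subunit protein, was at 8.34, 8.35, 8.47 and 8.52 log2 CPM, against 8.02 to 8.32 in mock, again with no overlap (0.25 ± 0.06, adjusted p = 0.00196). Rpl26, a large subunit protein that also binds p53 mRNA, was at 6.21, 6.29, 6.34 and 6.37 log2 CPM against 5.87 to 6.19, with no overlap (0.26 ± 0.07, adjusted p = 0.00718). These were the largest rises among 11 members whose D4 libraries all lay above mock, as did those of 6.03% of all genes.

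Rps27l and the stalk genes rose with D4 at 10 nM as well, with overlap. Rps27l was at 7.31, 7.43, 7.69 and 7.73 log2 CPM, against 6.92, 7.25 and 7.39 as the lowest, median and highest mock library (0.32 ± 0.08 SE, edgeR adjusted p = 0.00211). Rplp1 rose by 0.19 (adjusted p = 0.0184), Rplp0 by 0.17 (0.0369), Rplp2 by 0.17 (0.0424) and the small subunit protein Rpsa by 0.16 (0.0386). Without D4 replicate 2 or 4 none of these 4 passed (highest adjusted p 0.0889, 0.163, 0.161 and 0.183 for Rplp1, Rplp0, Rplp2 and Rpsa), and all but Rplp1 also lost their call without mock replicate 1, 2 or 6. Among the paralogs, Rpl22l1 differed by 0.18 ± 0.09 (adjusted p = 0.132), Rps4l by 0.26 (0.168), Rps4x by 0.13 (0.102) and Rpl7l1 by 0.08 (0.428), and none of these passed the test. Rps25 stood at 0.03 (0.768) and Rpl3, a core protein near the peptidyl transferase centre, at 0.06 (0.461).

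At the other doses of D4 no member was called higher, and the difference between doses was not tested. At 50 nM, 0 members were called higher and 1 lower, Rps25 (-0.15, edgeR adjusted p = 0.0274), while 16.7% of all genes were called higher and 17.9% lower; the median over members was 0.02. At 1 nM no member was called (2.07% of all genes in either direction, median -0.04) and at 0.1 nM none either (0.00886%, median -0.07). The Rps25 call at 50 nM was lost without D4 replicate 2 or 4 (adjusted p up to 0.119). Short mRNAs and related lists are given for comparison. Among other genes with under 1500 bases, the median with D4 at 10 nM was 0.09, with 12.9% called higher and 5.6% lower. The 21 listed translation factors with TOP mRNAs had 6 members higher and 2 lower (median 0.10), the 74 tested mitochondrial ribosomal proteins 4 higher and 1 lower (median 0.08), the 35 ribosome biogenesis genes 1 higher and 5 lower (median -0.02), and the 20 p53 targets 8 higher and 3 lower (median 0.20). Summed cholangiocyte marker levels were 203.8 to 259.6 CPM with D4 at 10 nM and 149.9 to 175.5 CPM in mock. They were 195.6 to 251.8 CPM with D5 and 208.9 to 220.8 CPM with D6 at the same dose. Kupffer cell and macrophage markers summed to 21.5 to 37.9 CPM with D4 at 10 nM and 16.6 to 23.2 CPM in mock. Stellate cell and fibroblast markers were at 9.04 to 16.1 CPM against 14.8 to 27.3 CPM, and the mitochondrially encoded share was 2.69 to 3.81% against 2.98 to 3.34%; the part of these in the result was not tested.

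**Figure D3:**
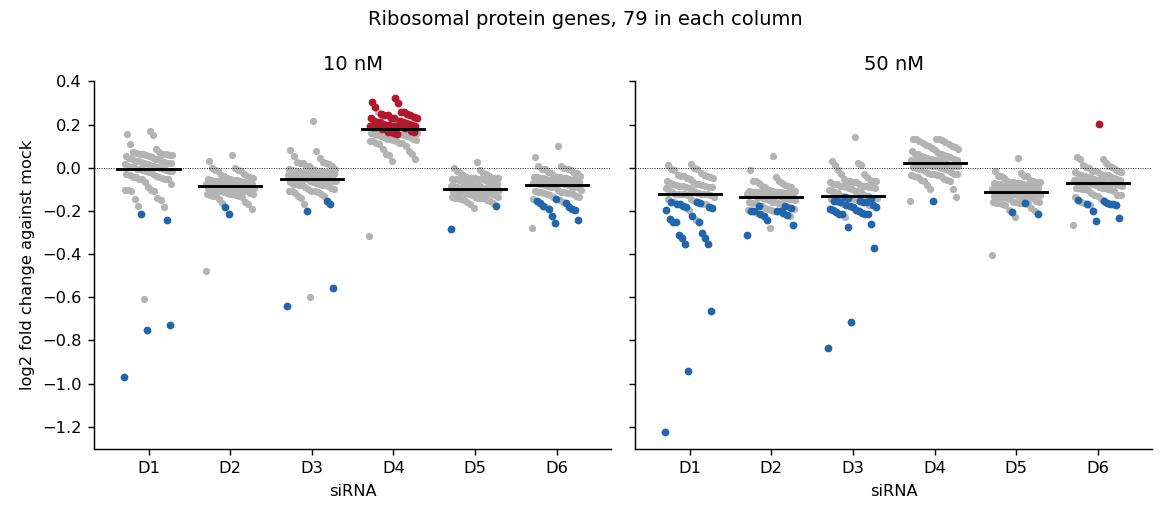
Log2 fold changes against mock of the 79 ribosomal protein genes (y axis) for each siRNA (x axis) at 10 and 50 nM, with members called higher in red, called lower in blue and others in grey, and the median as a bar. The members with D4 at 10 nM have a median of 0.18 and those of D1, D2 and D3 at 50 nM medians of -0.12 to -0.14, and a few points fall far below the rest with D1 and D3.

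Relative to other genes, the members were higher with D4 than with either of its GNA versions at 10 nM. At 10 nM, 55 members were called lower with D5 than with D4 and 0 higher (17.2% of all genes called in either direction), with a median of -0.25. In 63 members all D5 libraries lay below all D4 libraries, as in 8.88% of all genes. With D6 against D4, 21 were lower and 0 higher (1.92% of all genes), with a median of -0.26, and 60 members did not overlap, as 4.97% of all genes. Between D6 and D5, 0 members were called in edgeR's quasi-likelihood test (17.3% of all genes), 3 had an unadjusted p under 0.05, DESeq2 called 0, and the median was 0.01. Scaled to the spike-in RNAs, 0 members were called in either comparison with D4, and the members' medians were 0.01 for D5 and 0.11 for D6 beside 0.25 and 0.36 for all genes. The 55 became 26 without D5 replicate 3 and 31 without D5 replicate 1; the 21 became 0 without D6 replicate 3, 3 without D6 replicate 1 or 2, 6 without D6 replicate 4 or D4 replicate 4, and 11 without D4 replicate 3.

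Some single members were higher with D4 than with D5 or D6 at 10 nM. Rpl36, a large subunit protein, was at 6.80, 6.83, 7.01 and 7.05 log2 CPM with D4 and at 6.41, 6.53, 6.55 and 6.60 with D5, without overlap (-0.40 ± 0.08 SE, edgeR adjusted p = 0.00157). Rpl22l1 was at 6.32, 6.33, 6.68 and 6.75 with D4, at 5.96, 5.97, 6.16 and 6.22 with D5 (-0.45 ± 0.10, adjusted p = 0.00355), and from 5.97 to 6.31 with D6 (-0.42 ± 0.11, adjusted p = 0.0439). Rpl5, which binds 5S ribosomal RNA and, when free, the p53 regulator Mdm2, was lower with D6 than with D4 (-0.38 ± 0.07, adjusted p = 0.0082). Without D6 replicate 3 the D6 differences did not pass (adjusted p = 0.0577 for Rpl5 and 0.186 for Rpl22l1), and that of Rpl22l1 was lost without any 1 of 5 libraries of 8. Rps25 did not pass between D5 and D4 (-0.08, adjusted p = 0.509).

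At 50 nM fewer members differed from D4. With D5 against D4, 18 members were lower and 0 higher (22.9% of all genes, median -0.12), and with D6 against D4, 0 were called (4.18% of all genes, median -0.10), where 15 had an unadjusted p under 0.05 in edgeR's quasi-likelihood test and DESeq2 called 0. Scaled to the spike-in RNAs, the members' medians were 0.08 and 0.25, beside 0.19 and 0.34 for all genes. The largest differences between D5 and D4 were in Rpl39, a small large-subunit protein of the exit tunnel (-0.32 ± 0.10 SE, edgeR adjusted p = 0.0267), and Rpl36a (-0.29, adjusted p = 0.01). D6 against D5 gave 1 higher and 1 lower (20.4% of all genes): Rps27l was higher by 0.24 ± 0.07 (adjusted p = 0.0137), and Rps25 was lower by -0.22 ± 0.08 (0.0401). Rps27l lost its call without D5 replicate 3 (adjusted p = 0.0559), Rpl36a without D4 replicate 3 (0.0520), Rpl39 without any 1 of 5 libraries of 8 (up to 0.0918) and Rps25 without any 1 of 4 (up to 0.133). The 18 became 9 without D4 replicate 1, 10 without D4 replicate 3 or D5 replicate 2, 11 without D5 replicate 1 and 36 without D5 replicate 4.

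Against mock, D5 and D6 lay on the low side, as did every siRNA group but D4 at 10 and 50 nM by its median. With D4 at 0.1 nM, for example, 73 of 79 members lay below 0. With D5, 0 members were called at 0.1 nM (0.0% of all genes called, median -0.07) and at 1 nM (0.0444%, median -0.07), 2 were lower at 10 nM, Rpl22l1 and Rpl3 (3.54% of all genes lower and 4.59% higher, median -0.10), and 3 were lower at 50 nM, Rpl27a, Rps26 and Rps4x (1.97% lower and 4.58% higher, median -0.11). The 2 ranged from 0 without D5 replicate 2 or 3 to 7 without mock replicate 1, and the 3 from 0 without D5 replicate 1 or 2 to 19 without D5 replicate 4; without mock replicates 1 and 2 they were 20 and 24. At 50 nM the Rps26 call was lost without any 1 of 8 libraries of 12 (edgeR adjusted p up to 0.142) and that of Rps4x without D5 replicate 1, 2 or 3 (up to 0.07). With D6, 0 were called at 0.1 nM (0.0532%, median -0.03) and 1 nM (2.13%, median -0.03). At 10 nM, 12 were lower (13.9% of all genes lower and 11.9% higher, median -0.08), and at 50 nM, 10 were lower and Rps27l alone was higher (16.5% lower and 15.0% higher, median -0.07). The share of members called lower with D6 lay near that of all genes. The 12 ranged from 5 without D6 replicate 3 and 6 without D6 replicate 1 to 20 without mock replicate 1, and the 10 from 2 without D6 replicate 3, 3 without D6 replicate 1 and 6 without mock replicate 4 to 28 without D6 replicate 4; without mock replicates 1 and 2 they were 26 and 20. With the replicate number as a block in the fit, the 12 and the 10 became 1 and 6. That fit compares with mock replicates 1 to 4 only, which include the 2 lowest in member level, and this favours fewer members called lower.

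With the Hao1 siRNAs at 50 nM the members lay on the low side of mock. With D1, 24 members were called lower and 0 higher (14.2% of all genes lower and 11.7% higher), with a median of -0.12 and 76 of 79 members below 0. With D2, 14 were lower and 0 higher (2.95% lower and 3.09% higher), with a median of -0.14 and 78 of 79 below 0. With D3, 29 were lower and 0 higher (14.8% lower and 13.5% higher), with a median of -0.13 and 74 of 79 below 0. Such numbers below 0 also arose at low doses with 0 members called: 75 with D3 at 1 nM (median -0.07) and 73 with D4 at 0.1 nM (median -0.07). Scaled to the spike-in RNAs, the members' medians were -0.16, -0.34 and -0.05, beside -0.03, -0.20 and 0.08 for all genes, and 3, 0 and 2 members were called lower.

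The 50 nM counts depended on single libraries. For D1, the 24 became 15 without D1 replicate 3. For D3, the 29 became 18 without D3 replicate 2 and 19 without D3 replicate 3. For D2, the 14 ranged from 1 without D2 replicate 3 and 2 without D2 replicate 2 to 30 without D2 replicate 4, with 8 without D2 replicate 1, mock replicate 3 or mock replicate 4, 9 without mock replicate 7, 24 without mock replicate 1 and 22 without mock replicate 2. Without mock replicates 1 and 2 together, the counts were 43, 41 and 57. With the replicate number as a block in the fit, they were 13, 1 and 15 for D1, D2 and D3. Mock replicates 5 to 8 share their number with no siRNA library, so that fit compares with mock replicates 1 to 4. These include the 2 mock libraries lowest in member level. That alone favours fewer members called lower, so these counts are no independent check either.

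The lower doses of the Hao1 siRNAs gave few calls. At 10 nM, 5 members were lower with D1 (10.6% of all genes lower and 8.43% higher, median -0.01), 2 with D2 (1.09% lower and 1.17% higher, median -0.09) and 5 with D3 (8.9% lower and 8.54% higher, median -0.05), and 0 were higher with any of them. They were Rps25, Rpl5, Rpl22l1, Rpl3 and Rpl10a with D1, Rpl5 and Rpl12 with D2, and Rpl5, Rpl22l1, Rpl12, Rpl28 and Rps4x with D3, some of which were named only after their values were seen. The call of Rps4x with D3 was lost without any 1 of 10 libraries of 12 (edgeR adjusted p up to 0.176) and that of Rpl12 with D2 without any 1 of 9 (up to 0.226). The 2 with D2 ranged from 0 without D2 replicate 2 or 4 to 4 without mock replicate 1 or 2, the 5 with D1 became 10 without D1 replicate 4, and the 5 with D3 ranged from 3 to 8, the highest without mock replicate 1; without mock replicates 1 and 2 the counts were 9, 9 and 17 for D1, D2 and D3. At 1 nM, Rpl5 alone was lower with D1 (0.632% of all genes called), and 0 members were called with D2 (0.00886%) or D3 (0.407%). At 0.1 nM, 0 were called with D1 (0.32%), D2 (0.00885%) or D3 (0.00886%). Over the 11 groups at 0.1 and 1 nM, of all 6 siRNAs, in which edgeR called 0 members, 0 to 12 members had an unadjusted p under 0.05, and DESeq2 called 1 in D3 at 1 nM and 0 in the rest. The largest falls at 10 nM, in Rps25, Rpl5 and Rpl22l1, stood beside member medians near 0.

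**Figure D4:**
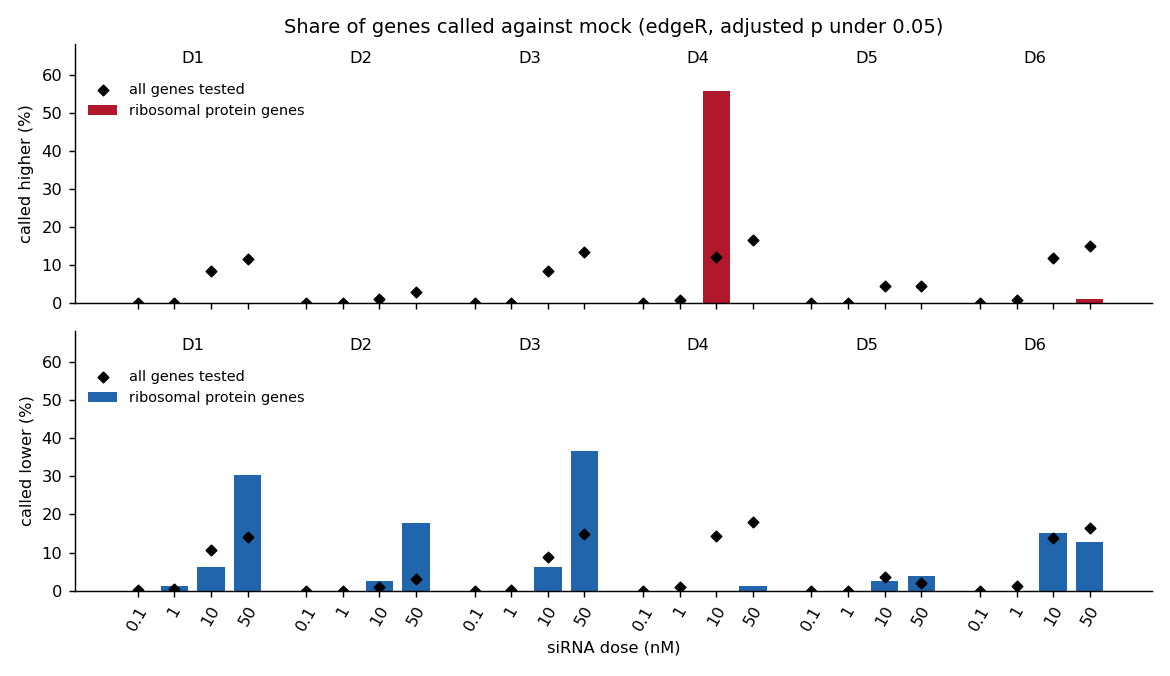
Share in percent of the 79 ribosomal protein genes and of all genes tested that were called higher or lower against mock (y axis), by siRNA and dose (x axis; edgeR, adjusted p under 0.05), with bars for the members and diamonds for all genes. The members exceed all genes on the higher side with D4 at 10 nM (44 of 79 against 12.2%) and on the lower side with D1, D2 and D3 at 50 nM (24, 14 and 29 of 79 against 14.2%, 2.95% and 14.8%).

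Members of both subunits were lower at 50 nM. With D1, 13 of 44 large subunit members outside the stalk, 10 of 32 small subunit members and 1 of 3 stalk members were lower, with D2 8, 5 and 1, and with D3 17, 11 and 1. Among the stalk genes, Rplp1 fell with D1 (-0.24, edgeR adjusted p = 0.0012), and Rplp2 fell with D2 (-0.21, 0.017) and D3 (-0.16, 0.0204). Rplp0 and Rpsa were called lower in no comparison with mock. Rpl12, which forms the base of the stalk, was at 8.73, 8.74, 8.76 and 8.77 log2 CPM with D3, against 8.95 to 9.25 in mock, with no overlap (-0.37 ± 0.05 SE, adjusted p = 1.51e-07). Rps27l, which rose with D4 at 10 nM and D6 at 50 nM (0.20 ± 0.06, adjusted p = 0.0126), fell with D2 (-0.22, 0.0352) and D3 (-0.21, 0.00739) at 50 nM. Its calls were lost without D6 replicate 2 or 4 (adjusted p up to 0.0701) and, for D2, without any 1 of 7 libraries of 12 (up to 0.222), and that of Rplp2 without D2 replicate 1, 2 or 3 and D3 replicate 2 (up to 0.121 and 0.0602).

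Rps25, a small subunit protein needed for some internal ribosome entry sites, had the largest difference from mock of any member. It was at 7.81, 8.07 and 8.16 log2 CPM as the lowest, median and highest mock library, at 6.98, 7.08, 7.13 and 7.18 with D1 at 10 nM, and at 6.76, 6.77, 6.83 and 6.92 with D1 at 50 nM. All 8 of these D1 libraries lay below every mock library, by -0.97 ± 0.06 SE at 10 nM (edgeR adjusted p = 1.43e-13) and -1.23 ± 0.06 at 50 nM (2.18e-18); at 1 nM the value was -0.20 (0.0861). With D2 at 50 nM it was at 7.81, 7.89, 7.93 and 8.14 and with D3 at 7.95, 7.97, 8.04 and 8.08. All 4 D3 libraries and 3 of the 4 D2 libraries lay within the mock range, the lowest D2 library lay just under it, and neither group passed the test (-0.11, adjusted p = 0.29, and -0.03, 0.712).

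The direct comparisons gave the same order for Rps25. D2 was higher than D1 by 0.96 ± 0.07 SE at 10 nM (edgeR adjusted p = 5.17e-11) and by 1.11 ± 0.07 at 50 nM (6.98e-13), and D3 was higher than D1 by 0.98 ± 0.07 (6.21e-10) and 1.18 ± 0.06 (1.73e-15). D3 minus D2 was 0.02 at 10 nM, with a 95% interval of -0.08 to 0.13, and 0.08 at 50 nM, with an interval of -0.04 to 0.20. Both GNA siRNAs differed from the parent in this gene, and no difference between them was detected within those intervals. Smaller values were called with the Ttr siRNAs, at -0.22 (0.00233) with D6 at 10 nM and -0.25 (0.00206) with D6 at 50 nM.

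Rpl5 gave a different order. In mock it was at 8.25, 8.44 and 8.54 log2 CPM as the lowest, median and highest library. At 50 nM it was at 7.39, 7.40, 7.55 and 7.60 with D1 and at 7.52, 7.58, 7.61 and 7.66 with D3, all below mock, and at 8.09, 8.15, 8.17 and 8.30 with D2, where 1 library overlapped mock. Against mock it fell by 0.94 ± 0.06 SE with D1 (edgeR adjusted p = 5.61e-16), by 0.83 ± 0.05 with D3 (4.12e-16) and by 0.26 ± 0.05 with D2 (0.0014). At 10 nM it fell by 0.75 ± 0.06 (1.83e-11), 0.64 ± 0.05 (8.15e-11) and 0.21 (0.0145; not called without D2 replicate 2 or 4, up to 0.150), and it was already lower with D1 at 1 nM (-0.25 ± 0.05, 0.00317).

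Between siRNAs, D2 stood apart in Rpl5. D2 was higher than D1 by 0.53 ± 0.07 SE at 10 nM (edgeR adjusted p = 4.33e-06) and 0.67 ± 0.07 at 50 nM (5.96e-09), and D3 was lower than D2 by -0.43 ± 0.06 (4.36e-05) and -0.57 ± 0.06 (2.80e-09). D3 minus D1 was 0.10 at 10 nM, with a 95% interval of -0.04 to 0.24, and 0.09 at 50 nM, with an interval of -0.03 to 0.21. In Rpl5 the GNA-C siRNA differed from both others, and no difference between the GNA-isoC siRNA and the parent was detected within those intervals.

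Rpl22l1 fell with all 3 Hao1 siRNAs at 50 nM. Its mock libraries ran from 6.01 over a median of 6.39 to 6.51 log2 CPM, and it was at 5.36, 5.66, 5.68 and 5.95 with D1, at 5.55, 5.60, 5.60 and 5.80 with D3 and at 5.84, 5.84, 6.22 and 6.28 with D2 at 50 nM. The D1 and D3 libraries did not overlap mock and those of D2 did. The falls were 0.66 ± 0.09 SE with D1 (edgeR adjusted p = 4.82e-07), 0.72 ± 0.08 with D3 (1.62e-09) and 0.31 ± 0.09 with D2 (0.0256), where the call was lost without D2 replicate 2 or 3 or mock replicate 3 or 4 (adjusted p up to 0.160). D3 was lower than D2 (-0.40 ± 0.10, adjusted p = 0.0056), D2 and D1 differed by 0.35 (0.0654, not past the threshold at 50 nM), and D3 minus D1 was -0.06 with an interval of -0.26 to 0.13.

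Rpl5 and Rpl22l1 were also the members lower in the most comparisons with mock, 8 each of 24. Rpl12, Rpl27a, Rpl3, Rps25 and Rps3 followed with 5 and Rps4x with 4. In all, 46 members were lower in at least 1 comparison and 33 in none, 35 were never higher, and 14 were called in no comparison with mock. Such counts over 24 comparisons were not made for all genes. Of all genes, 1.09% to 17.9% were called lower in each comparison at 10 and 50 nM, so the counts do not set the members apart. Other members that differed between D1 and its GNA versions were few, and were named after their values were seen: Rpl7l1, a paralog of Rpl7, was higher with D3 than with D1 at 50 nM (0.37 ± 0.07 SE, edgeR adjusted p = 0.000252) and with D2 (0.28, 0.0155; 0.0665 without D1 replicate 2), after a fall with D1 against mock (-0.35 ± 0.07, 0.000219).

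**Figure D5:**
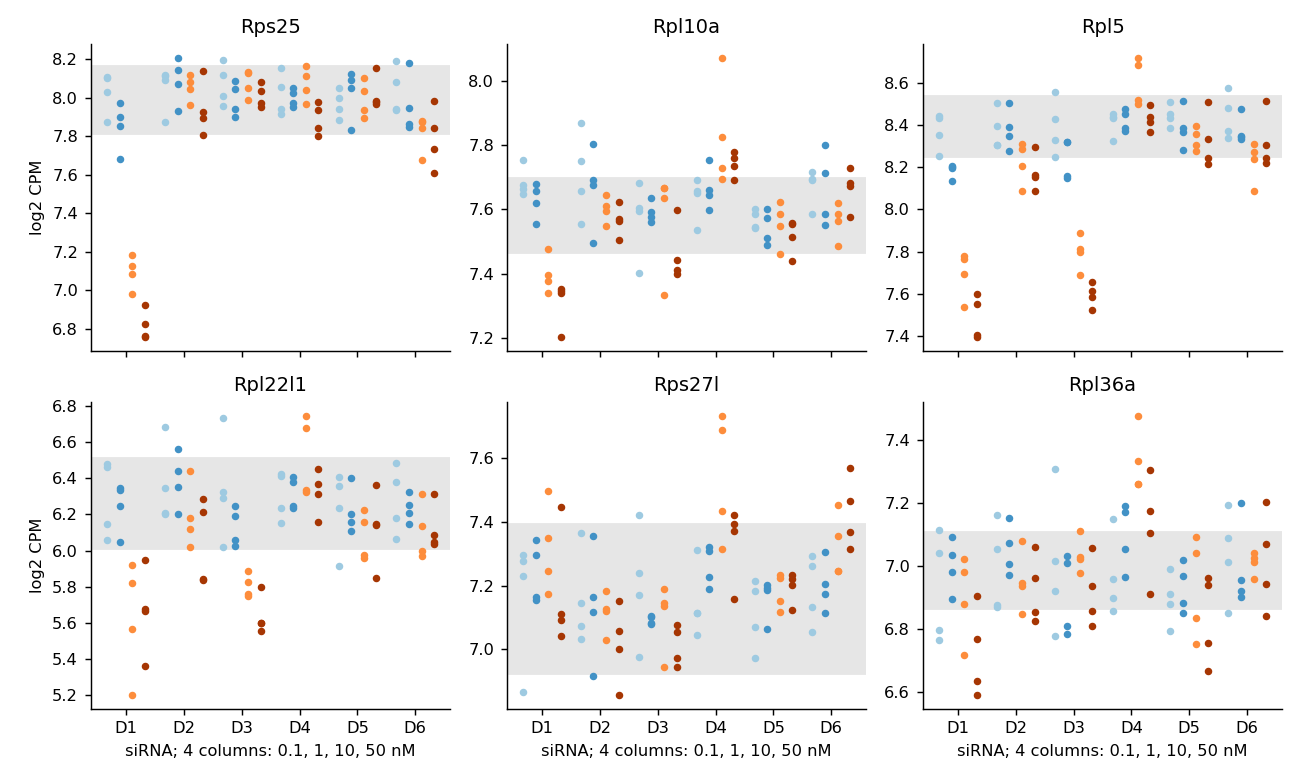
Log2 CPM (y axis) of Rps25, Rpl10a, Rpl5, Rpl22l1, Rps27l and Rpl36a in the libraries of each siRNA and dose (x axis), in columns from 0.1 to 50 nM within each siRNA, with each point a library and the mock range as a grey band. Rps25 leaves the band at 10 and 50 nM of D1, with 6.76 to 7.18 against 7.81 to 8.16 in mock; Rpl5 leaves it with D1 and D3; and Rpl36a lies above it with D4 at 10 nM.

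Few members were called between the Hao1 siRNAs. At 10 nM, 4 members were called between D2 and D1 (10.7% of all genes), 1 between D3 and D1 (11.3%) and 2 between D3 and D2 (4.08%), with medians of -0.09, -0.06 and 0.03. These were Rps25, Rpl5, Rpl22l1 and Rpl10a for D2 against D1, Rps25 for D3 against D1, and Rpl5 and Rpl22l1 for D3 against D2. At 50 nM, 5 were called between D2 and D1 (14.0%), 7 between D3 and D1 (23.8%) and 3 between D3 and D2 (9.81%), with medians of -0.02, -0.02 and 0.02. These were Rps25, Rpl5, Rpl7l1, Rpl10a and Rpl3, all higher with D2 than with D1, and Rpl5, Rpl22l1 and Rpl12, all lower with D3 than with D2. D3 against D1 gave Rps25, Rpl7l1, Rps9 and Rplp1 higher and Rpl10, Rpl13 and Rps6 lower, each of the last 5 by at most 0.20. The call of Rplp1 was lost without any 1 of 5 libraries of 8 (edgeR adjusted p up to 0.0925) and that of Rpl10 without any 1 of 4 (up to 0.0837), and the 3 lower members ranged from 0 without D3 replicate 2 to 8 without D1 replicate 3. For D3 against D2, the Rpl12 call was lost without any 1 of 4 libraries (up to 0.0996). The shares of members called were below those of all genes in each of these 6 comparisons.

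Matches to the guide seed were looked for in the members' mRNAs. The mRNA letters opposite guide positions 2 to 8 are ATCGACA for D1 to D3 and CTCTATA for D4 to D6, and the 7-base matches that end in A opposite position 1 are TCGACAA and TCTATAA. In canonical GENCODE transcripts on GRCm39, 0 of 79 members had a D1 to D3 match in the 3′-UTR, against 2.18% of 11031 expressed genes, and 4 (5.06%) had one in the coding sequence, against 9.99% of 11107. For D4 to D6, 6 (7.59%) had a match in the 3′-UTR, against 16.2%, and 3 (3.8%) in the coding sequence, against 9.34%. The 6 were Rpl21, Rpl22l1, Rpl28, Rps19, Rps20 and Rps24, with 8-base matches in Rpl22l1 and Rps24, and the 3 were Rpl3, Rpl4 and Rps23. None of these was called lower against mock with D4 at any dose. Rpl28, Rps19, Rps20 and Rps24 were called higher with D4 at 10 nM, where 44 of 79 members were. Rpl22l1 was called lower with D5 at 10 nM and D6 at 10 and 50 nM, and Rpl3 with D5 and D6 at 10 nM. The others were called lower with no Ttr siRNA. The members' regions were short: the median 3′-UTR was 226 bases against 1367, and the median coding sequence 459 against 1407.

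The 4 coding matches to D1 to D3 are printed with the match in capitals, since Rps25 and Rpl10a are among them.
Rps25, chr9:44320032-44320038, plus strand: tcttgtcctgtTCGACAAagcgacatacga
Rpl10a, chr17:28549644-28549651, plus strand: gatgaggtgaaATCGACAAtcaagttccag
Rpl23, chr11:97669179-97669185, minus strand: gcagtggtaatTCGACAAcgaaagtcatat
Rps4l, chr6:148256481-148256488, plus strand: atgtcatcagcATCGACAAgagcggcgaga
The matches are of 8 bases in Rpl10a and Rps4l and of 7 bases in Rps25 and Rpl23. Rpl10a, a large subunit protein at the L1 stalk, was at 7.20, 7.34, 7.35 and 7.35 log2 CPM with D1 at 50 nM, against 7.46 to 7.70 in mock, with no overlap (-0.31 ± 0.06 SE, edgeR adjusted p = 3.97e-05), and at -0.07 (0.5) with D2 and -0.15 (0.0234) with D3. D2 was higher than D1 by 0.21 at 10 nM (adjusted p = 0.0371) and by 0.24 at 50 nM (0.0112). Rpl23 (-0.11, 0.181) and Rps4l (-0.24 ± 0.15, 0.235) did not pass with D1 at 50 nM, and Rpl5 and Rpl22l1 held no D1 to D3 match in either region. A match is a description of letters and shows no binding. Rpl10a was named for this match after its values were seen.

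Calls were counted apart for members with and without the pyrimidine run. With D4 at 10 nM, 26 of 45 members with a run of at least 8 were higher (median 0.18), and 7 of 13 with a shorter run (median 0.16). With D1 at 50 nM, 13 of 45 and 4 of 13 were lower, with D2 11 and 1, and with D3 18 and 5. Between D5 and D4 at 10 nM, 29 and 10 were lower. Of all genes, 12.2% were higher with D4 at 10 nM, and 14.2%, 2.95% and 14.8% were lower with D1, D2 and D3 at 50 nM. Outside the members, the 21 TOP translation factors had 13 lower and 0 higher with D1 at 50 nM (median -0.15), 1 lower with D2 (median -0.06) and 5 lower with D3 (median -0.07), and 7 lower and 1 higher in D5 against D4 at 10 nM (median -0.14), where 17.2% of all genes were called in either direction.

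Other lists were counted in the same fits, in which 14.2% of all genes were lower and 11.7% higher with D1 at 50 nM, and 14.8% lower and 13.5% higher with D3. The 35 ribosome biogenesis genes had 12 lower and 1 higher with D1 at 50 nM (median -0.14) and 7 lower and 2 higher with D3. Amino acid response genes had 9 of 14 lower and 2 higher with D3 at 50 nM (median -0.44), and 4 higher and 2 lower with D1. Hepatocyte markers summed to 23110 to 26120 CPM with D1, 23260 to 26590 CPM with D2 and 25180 to 26980 CPM with D3 at 50 nM, against 19950 to 23920 CPM in mock. Cholangiocyte markers summed to 198.2 to 236.2 CPM with D1, 163.1 to 176.8 CPM with D2 and 202.8 to 225.9 CPM with D3, against 149.9 to 175.5 CPM in mock. The mitochondrially encoded share with D3 was 3.65 to 3.82%, against 2.98 to 3.34% in mock, and the part of any of these in the members' values was not tested.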

How the data were processed

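Total RNA libraries (TruSeq Stranded Total RNA, NextSeq500) of 104 samples were measured in 2 sequencing runs each. The authors trimmed reads with fastq-mcf, aligned them with STAR to GRCm39 and counted unique alignments per gene with featureCounts 2.0.2, and they deposited these as raw counts; their DESeq2 1.32.0 tables, which hold fold changes and p-values, were read here for gene symbols only. The 2 runs were summed, and 92 spike-in rows were left out of tests. Symbols, gene lists and members were chosen with earlier results of these data known.

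The test was that of edgeR 4.0.16, run on the counts under R 4.3.3 (TMM, filterByExpr, robust quasi-likelihood fit, Benjamini-Hochberg over all genes, threshold 0.05), with the 4 libraries of a group against the 8 mock libraries in 24 comparisons and between siRNAs that share a guide in 12. Edges of 95% intervals are 1.96 SE from the estimate. Levels are log2 CPM after TMM over all libraries, with a prior count of 2. All 79 members passed the filter in each comparison. No test was made over the list. Depth ran from 3409963 to 6160626 counts per library, which limits members such as Rps10. Intervals and limits cover counting error and the spread of these libraries only.

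Named genes were, by rule, Rpsa and the stalk genes, members ending in l, l1 or x, the 3 largest called rises and falls without overlap per siRNA at 10 and 50 nM, the 5 highest and lowest per kilobase, the 3 most and least variable in mock, the 2 largest called differences per direct comparison, and Hao1 and Ttr; others were named after their values were seen. Some results that the rule names are not reported here. Alternatives were other size factors, library totals, spike-in scaling, no filter, each run alone, all libraries in 1 fit, a replicate block, DESeq2 1.42.0, a 10 CPM minimum, an enlarged list and each library left out. The labels do not say what a replicate number marks, so numbers were not used as pairs. Scripts were tested on simulated data. Python 3.11.15, numpy 2.4.6, pandas 2.3.3 and matplotlib 3.10.9 were used.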

Additional observations from a re-analysis of the deposited data

Results flagged for a closer look

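A single library far from the other 3 of its group was found for the member level in 2 of the groups tested. With D1 at 1 nM, 1 library was at 7.63 log2 CPM and the others at 7.72 to 7.73 (gap over range 0.87), and with D6 at 10 nM, 1 library was at 7.50 and the others at 7.66 to 7.69 (0.852). Chance alone would mark about 1 in 20 groups.

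Members that differed between siRNAs with the same guide at the same dose numbered 4 for D2 against D1, 1 for D3 against D1, 2 for D3 against D2, 55 for D5 against D4 and 21 for D6 against D4 at 10 nM, where 10.7%, 11.3%, 4.08%, 17.2% and 1.92% of all genes were called. At 50 nM they numbered 5 for D2 against D1, 7 for D3 against D1, 3 for D3 against D2, 18 for D5 against D4 and 2 for D6 against D5, where 14.0%, 23.8%, 9.81%, 22.9% and 20.4% of all genes were called. Each count comes from edgeR's test of the difference itself.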

How the results depend on the processing

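Relative to the median of all genes, the members' medians kept their direction, or moved by less than the spread between replicates, in the 24 comparisons with mock under every alternative and in the 12 between siRNAs under those run for them (RLE size factors, spike-in scaling, 1 fit, the replicate block, DESeq2 and left-out libraries). The difference of the member level from mock, also taken relative to all genes, did so in the 24 siRNA groups under each of its 4 alternatives. A change of scale shifts all genes of a library nearly alike, so it cancels from these differences. Agreement under the scaling alternatives was therefore fixed in advance and is no check of the members. A median smaller than the spread could also turn sign and still count as kept. Counts moved with scaling, with the mock libraries and with single libraries, and the causes were not tested. Scaled to the spike-in RNAs, the members called fell to 0 for D5 against D4 at 10 nM and 50 nM, D6 against D4 at 10 nM, D4 at 10 nM (higher), and D6 at 10 nM, D2 at 50 nM and D6 at 50 nM (lower), to 3 for D1 at 50 nM and to 2 for D3 at 50 nM; 3 genes not called under the usual scaling turned sign relative to the median of all genes, to 0.0064 for Rpl36 and -0.0034 for Rps26 with D3 at 10 nM and -0.0088 for Rpsa with D1 at 10 nM. Without mock replicates 1 and 2, which was tried only once the data had been seen, the counts were 17 for D4 at 10 nM, 26 for D6 at 10 nM, and 43, 41, 57 and 20 for D1, D2, D3 and D6 at 50 nM. Of all 48 counts against mock, 14 rose by over 1.5 times or from 0 and 1 fell by over 1.5 times; the other rises were to 2, 2 and 1 for D1, D3 and D4 at 1 nM, 9, 9, 17 and 20 for D1, D2, D3 and D5 at 10 nM, and 5 and 24 for D4 and D5 at 50 nM, all lower.

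For D6 against D4 at 10 nM, 65 members were called with all libraries in 1 fit and 46 by DESeq2, which differ from the 21 called. With the replicate block this count was 44, and the block gave 1 for D6 at 10 nM and 13, 1, 15 and 6 for D1, D2, D3 and D6 at 50 nM. Against mock, the block leaves mock replicates 5 to 8 out of the difference, since no siRNA library has their number. The 2 lowest mock libraries stay in it, which favours fewer members called lower. Over genes, the deviations of same-numbered libraries from their group means correlated by -0.22 to 0.17, and at most 1 pair of 4 in a comparison passed 0.1; for D6 against D5 at 10 nM every library correlated best with its own number. The member level was highest in replicate 4 in 15 of 24 siRNA groups, so whether the numbers mark a shared factor was not settled. Run 1 alone gave 9 for D2 and 6 for D6 at 50 nM, and library totals gave 6 for D6 at 50 nM.

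With single libraries left out, the counts ranged from 26 to 56 for D5 against D4 and 0 to 21 for D6 against D4 at 10 nM, from 9 to 36 for D5 against D4 at 50 nM, from 21 to 48 for D4 and 5 to 20 for D6 at 10 nM against mock, and from 15 to 31, 1 to 30, 18 to 41 and 2 to 28 for D1, D2, D3 and D6 at 50 nM against mock.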
